A study of Mus musculus with 6 samples.

Results

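The genes described are 9 of the 32285 genes in each count matrix: the complement genes C1qa, C1qb, C1qc and C4b, and the microglia genes P2ry12, Tmem119, Cx3cr1, Sall1 and Fcrls. They were chosen by name, and all 9 were found in both matrices. The samples were sorted CD3+CD4+ or CD3+CD8+ cells from intracranial CT2A tumours, grown from a mouse glioma cell line in wild-type C57BL/6J mice aged 6 to 8 weeks. Tumours were taken on day 13, from 16 mice pooled by 4, and on day 19, from 4 mice. Each day had 1 capture with 5′ chemistry, read as gene expression, antibody tag and T cell receptor libraries, which makes 6 samples. With 1 capture per day no test between groups was possible, so intervals given here cover counting error only.

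Barcodes with at least 5000 gene UMIs (unique molecular identifiers, each marking 1 captured molecule) and at most 10% mitochondrial UMIs were used, 8878 on day 13 and 4667 on day 19. They were split by whether the barcode occurs in the deposited tables of assembled T cell receptor contigs. Outside these tables lay 4246 barcodes on day 13 and 1452 on day 19, and inside lay 4632 and 3215. The median depth outside was 12263.5 and 16552 gene UMIs, against 7607.5 and 10079 inside, and the whole matrices held 144565182 and 81224453 gene UMIs. A total of 62 barcode sequences occurred in both days, 0.698% of those of day 13 and 1.33% of those of day 19. The sort required surface CD3, yet the outside barcodes carried macrophage and microglia genes. A UMI of Cd3d, Cd3e, Cd3g, Trac, Trbc1 or Trbc2, called a T receptor UMI below, was present in 77.4% of them on day 13 and 78.2% on day 19. The median CD3 antibody count was 39 outside and 38 inside on day 13, and 21 and 20 on day 19. Doublets were not removed, so results are also given for the 959 and 317 outside barcodes with no T receptor UMI.

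C1q is the recognition molecule of the classical complement pathway, and each C1q unit is built from the products of C1qa, C1qb and C1qc. C4b encodes complement component C4, which is cleaved after C1q binds and whose fragment is deposited on the target surface. In the brain, C1q is made mainly by microglia and macrophages, and it is known for tagging synapses for removal. P2ry12, a purinergic receptor for ADP, Tmem119, a membrane protein of unclear role, Sall1, a transcription factor of microglial identity, and Fcrls, an Fc receptor-like protein, mark resident microglia. Cx3cr1, the fractalkine receptor, is also carried by monocytes and some T cells. Gpnmb, a lysosomal and membrane glycoprotein, and Ms4a7, a membrane protein of the MS4A family, are used as markers of tumour macrophages, in particular of monocyte-derived ones.

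The genes C1qb, C1qc and C1qa lie next to each other in 18.7 kb of chromosome 4 (GRCm38.p6, chr4:136880126-136898844). C1qb spans chr4:136880126-136886200, C1qc chr4:136889801-136892936 and C1qa chr4:136895916-136898844. C4b lies at chr17:34728139-34743902, P2ry12 at chr3:59216271-59262985, Tmem119 at chr5:113793729-113800396, Cx3cr1 at chr9:120048683-120068296, Sall1 at chr8:89027242-89044162 and Fcrls at chr3:87250736-87263765. C4a is a near-identical neighbour of C4b, so the split of reads between them is uncertain.

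Upstream sequences from RefSeq are shown for C1qb, C1qc and P2ry12. The ratios of C1qb and C1qc had the same sign in every comparison below under the main processing. P2ry12 did not follow them by Gpnmb and Ms4a7 class or by day. Capitals mark GGAAGT or its reverse complement ACTTCC, the core bound by ETS factors such as PU.1 of macrophages, searched on both strands of the 250 bases before each start. All are on the minus strand, at chr4:136886201-136886450 for C1qb, chr4:136892937-136893164 for C1qc and chr3:59262986-59263235 for P2ry12. The stretch of C1qc is cut to 228 bases, since its last 22 bases fall within the annotated gene.
C1qb: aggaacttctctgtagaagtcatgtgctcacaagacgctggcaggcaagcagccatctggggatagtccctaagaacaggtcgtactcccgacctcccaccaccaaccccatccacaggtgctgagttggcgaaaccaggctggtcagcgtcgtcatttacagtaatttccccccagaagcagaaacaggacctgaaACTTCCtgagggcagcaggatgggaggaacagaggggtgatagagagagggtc
C1qc: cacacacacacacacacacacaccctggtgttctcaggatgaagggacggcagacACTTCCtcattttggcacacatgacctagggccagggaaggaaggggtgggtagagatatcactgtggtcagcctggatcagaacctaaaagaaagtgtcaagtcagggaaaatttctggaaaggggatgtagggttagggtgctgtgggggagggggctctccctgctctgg
P2ry12: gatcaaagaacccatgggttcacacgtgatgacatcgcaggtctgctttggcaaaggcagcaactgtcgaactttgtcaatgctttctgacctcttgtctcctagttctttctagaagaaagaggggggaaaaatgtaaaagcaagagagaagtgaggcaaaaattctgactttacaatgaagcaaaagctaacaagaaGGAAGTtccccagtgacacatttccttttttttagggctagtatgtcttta
The core occurred on the other strand 53 bases before the start of C1qb and 195 bases before that of C1qc, and on the gene's own strand 51 bases before that of P2ry12. Of 32851 RefSeq windows of 250 bases, 6485 (19.7%) hold it. A window was found for 6 of the 9 genes, and those of C1qb, C1qc, P2ry12 and Fcrls and 1 of the 3 of Sall1 hold the core, while that of Cx3cr1 does not. A match describes the letters only, and no binding was measured.

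All 9 genes were at a higher level outside the contig tables than inside on both days, and the complement genes were more than 2-fold higher. Levels are CPM, the UMIs of a gene per 1000000 gene UMIs, taken from UMIs summed over the barcodes of a group, so they do not separate the share of barcodes with a gene from the UMIs per barcode. On day 13 the level of C1qa was 1156 CPM outside and 508 inside (log2 ratio 1.19, interval 1.17 to 1.21). C1qb had 1432 and 572 CPM (1.32), C1qc 952 and 402 CPM (1.25) and C4b 8.33 and 3.96 CPM (1.08, 0.83 to 1.32). On day 19 C1qa had 1804 and 859.7 CPM (1.07), C1qb 2117 and 957 CPM (1.15), C1qc 1514 and 709 CPM (1.09) and C4b 25.1 and 11.3 CPM (1.15, 0.98 to 1.32). These 4 complement genes are the members called, a call being a difference of at least 2-fold where the sums compared held 100 UMIs or more between them. The count was 4 of 9 on each day, beside 7.97% of 12222 genes tested on day 13 and 4.75% of 11576 on day 19 that were called higher outside.

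The 5 microglia genes differed less between outside and inside, within 2-fold on both days. P2ry12 was at 97.2 CPM outside and 60.8 inside on day 13 (log2 ratio 0.68), and at 58.8 and 33.1 on day 19 (0.83). Tmem119 was at 88.0 and 57.9 CPM on day 13 (0.60) and at 89.2 and 47.2 on day 19 (0.92). Fcrls gave ratios of 0.69 and 0.60. Cx3cr1 gave 0.88 and 0.97, and Sall1, with only 426 UMIs outside on day 13 and 276 on day 19, gave 0.89 and 0.70. The median over the 9 genes was 0.89 on day 13 and 0.97 on day 19, against -0.05 and -0.04 over all genes tested.

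Near-empty barcodes, with 1 to 100 gene UMIs, show the level in RNA free in the suspension. C1qa stood there at 629.6 CPM on day 13 and 1022 on day 19, above its level inside the contig tables on both days. P2ry12 stood at 107 and 58.1 CPM and Tmem119 at 86.7 and 79.4 CPM, close to or above their levels outside. C4b had 5.29 and 12.2 CPM. So the summed levels of P2ry12 and Tmem119 outside were close to those of free RNA, whereas C1qa outside was well above it. The proportions of the C1q transcripts differed between these pools. Of all C1q UMIs, C1qc made up 30.5% in near-empty barcodes on day 13 and 26.9% outside, and 31.4% and 27.9% on day 19. Inside, its proportion was 27.1% and 28.1%, nearer to the outside barcodes than to the near-empty ones. Other ratios were mixed. C1qa made up 34.3% and 34.0% inside, 32.7% and 33.2% outside, and 30.8% and 31.8% in near-empty barcodes. UMIs of P2ry12 per 1000 of C1qa were 120 and 38.5 inside, 84.0 and 32.6 outside, and 170 and 56.9 near-empty. Inside with neither Gpnmb nor Ms4a7 they were 160 and 53.3. The part of free RNA inside was not tested.

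**Figure D1:**
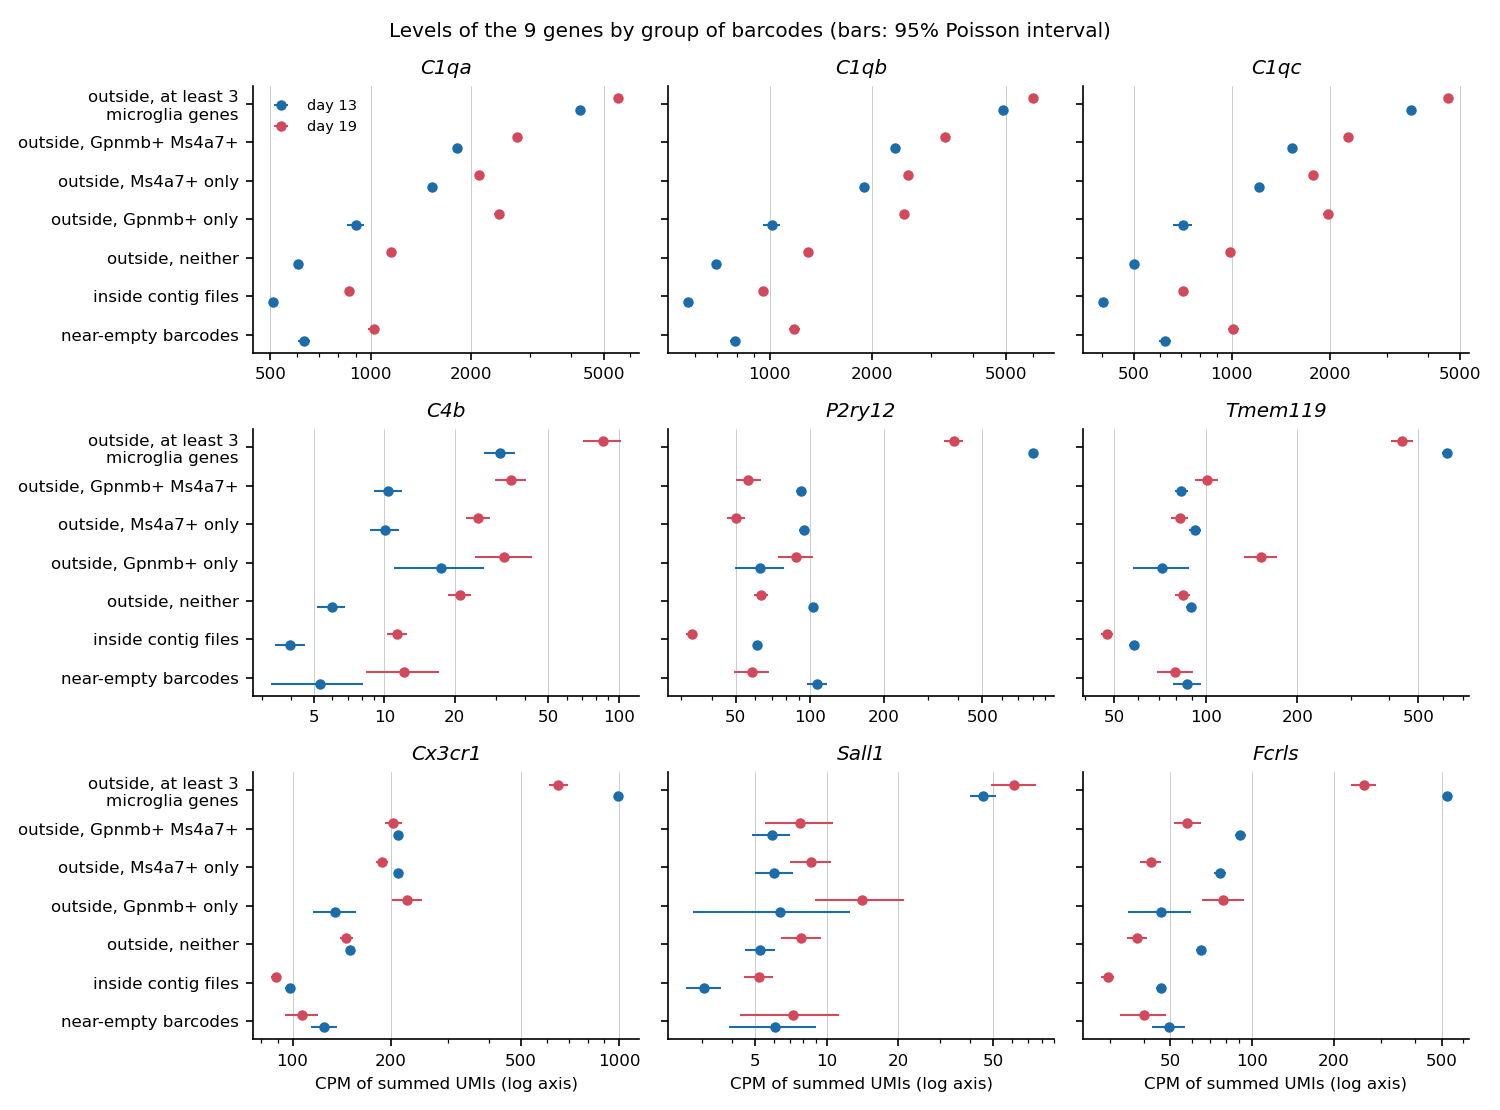
Level of each of the 9 genes in near-empty barcodes, inside the contig tables, in the outside barcodes by Gpnmb and Ms4a7 class, and in outside barcodes with at least 3 of P2ry12, Tmem119, Sall1 and Fcrls. Points are CPM of summed UMIs on a log axis, blue for day 13 and red for day 19, bars are exact 95% Poisson intervals, and C1qa is seen to climb from 604 to 1811 CPM between the classes with neither and with both marker genes on day 13 while P2ry12 does not.

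The genes were uneven among barcodes. To compare detection at equal depth, every barcode was thinned to 5000 UMIs. C1qa was then found in 40.0% of outside barcodes on day 13 and 62.0% on day 19, against 18.2% and 34.4% inside (45.6% and 67.4% outside, and 20.8% and 39.7% inside, without thinning). P2ry12 was found in 14.6% and 16.9% outside and in 6.97% and 9.18% inside. C4b was found in 2.66% and 8.75% outside, and Sall1 in 2.28% and 3.31%. P2ry12 was the more concentrated gene: on day 13 the tenth of outside barcodes with the most of it held 84.9% of its UMIs, while for C1qa this was 59.9%. The highest count in a single outside barcode was 321 UMIs for C1qa and 58 for P2ry12 on day 13, and 357 and 25 on day 19.

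The C1q genes were found together. All of C1qa, C1qb and C1qc were detected after thinning in 35.2% of outside barcodes on day 13 and 57.5% on day 19, and in 13.5% and 28.6% of inside barcodes. Among outside barcodes with C1qa on day 13, 92.3% also had C1qb, against 10.3% of those without C1qa, at median depths of 20069.5 and 10129.5 UMIs. Over outside barcodes the correlation of log counts between C1qa and C1qc was 0.967 on day 13 and 0.970 on day 19, and between C1qa and C1qb 0.963 and 0.965. These were the nearest genes to C1qa by this measure, taken over 4246 and 1452 barcodes that share a library and vary in depth. Others among the 6 nearest were Cd81, a tetraspanin (0.778 and 0.828), Trem2, a lipid receptor of microglia and macrophages (0.758 and 0.790), and Olfml3 (0.759 and 0.740). C4b was less like C1qa, at 0.353 and 0.479.

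P2ry12 had other neighbours. Among the 6 genes most like it were Sparc, a secreted matrix protein (0.851 on day 13 and 0.752 on day 19), Tmem119 (0.853 and 0.714), Olfml3 (0.813 and 0.704), Cx3cr1 (0.775 and 0.688) and Ptgs1, a cyclooxygenase (0.814 and 0.682). Its correlation with Gpnmb was 0.012 and 0.039 and with Ms4a7 0.035 and -0.008, so its counts ran neither with nor against either marker across the outside barcodes as a whole. C1qa correlated with Ms4a7 at 0.446 and 0.375 and with Gpnmb at 0.218 and 0.196.

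To describe the genes by macrophage marker, outside barcodes were placed in classes by at least 1 UMI of Gpnmb and of Ms4a7. On day 13, 639 barcodes had both, 72 Gpnmb only, 758 Ms4a7 only and 2777 neither. On day 19 the classes held 129, 65, 374 and 884 barcodes. The classes differed in depth, and the reason was not tested. The median was 28683 UMIs with both and 9962 with neither on day 13, and 38202 and 11611.5 on day 19. A T receptor UMI was found in 84.5% of barcodes with both and 74.4% with neither on day 13, and in 91.5% and 73.5% on day 19. The part of depth and of mixed barcodes in the class differences was not tested.

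The C1q genes were higher in the Gpnmb+ Ms4a7+ barcodes than in those with neither marker, and no microglia gene was called. On day 13 C1qa was at 1811 CPM in the first and 604 in the second (log2 ratio 1.58, interval 1.56 to 1.61), C1qb at 2339 and 693 (1.75) and C1qc at 1527 and 499.6 (1.61). On day 19 C1qa was at 2753 and 1151 CPM (1.26), C1qb at 3290.1 and 1301 (1.34) and C1qc at 2275 and 986 (1.21). These 3 of 9 members were called higher on each day, beside 2.89% of 11156 genes tested on day 13 and 1.52% of 9531 on day 19. No member was called lower, beside 1.69% and 1.26%. With classes made from the UMIs left after thinning, the day 19 ratios fell under 2-fold. They were 0.94 for C1qa, 0.98 for C1qb and 0.99 for C1qc. Of 13 alternatives, 12 kept the day 19 call of C1qa, 12 that of C1qb and 11 that of C1qc. All 3 C1q genes were detected together in 74.0% of Gpnmb+ Ms4a7+ barcodes and 18.8% of those with neither on day 13, and in 94.6% and 40.0% on day 19. The 8 markers of border macrophages summed to 77.5 CPM with both markers and 37.9 with neither on day 13 and to 114 and 35.5 on day 19, with Lyve1 at 0 in the barcodes with neither on day 19. Those of neutrophils summed to 37.7 and 17.5 CPM and to 28.5 and 15.8. Of these, S100a9 and Retnlg were at 0 with both markers on both days. With neither marker Retnlg was at 0 on day 13, and only Csf3r was above 0 on day 19. Choroid plexus markers summed to 0.76 and 137 CPM and to 1.19 and 14.02. Dendritic cell markers summed to 685 and 1152 CPM and to 383 and 745. Natural killer cell markers summed to 11.6 and 14.2 CPM and to 19.5 and 46.7. Their part in the class differences was not tested.

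C4b, which acts after C1q, was at 10.4 CPM with both markers and 5.95 with neither on day 13 (0.80) and at 34.6 and 21.0 on day 19 (0.72), within 2-fold. P2ry12 was at 91.8 and 103 CPM on day 13 (-0.16, -0.24 to -0.08) and at 56.3 and 63.4 on day 19 (-0.17). Tmem119 was at 83.0 and 89.1 CPM on day 13 (-0.10) and at 100.5 and 84.1 on day 19 (0.26). P2ry12 and Tmem119 thus stood within 2-fold with and without the macrophage markers, and near their level in near-empty barcodes. Fcrls gave 0.48 and 0.62, Cx3cr1 0.49 and 0.48, and Sall1 0.16 and -0.02. Several of the day 19 values moved with the processing. Fcrls ranged from -1.89 to 1.01, being called higher without the 8% of barcodes with the most UMIs (1.01) and negative with classes from thinned UMIs (-0.15), where Sall1 was called lower (-1.23). C4b was called higher with at least 80% of tag UMIs on 1 tag (1.31) and was negative with classes made by at least 2 UMIs of each marker (-0.15).

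With the T receptor barcodes left out, the picture for the microglia genes differed. Among these barcodes, 99 had both markers and 711 neither on day 13. C1qa was at 2869 CPM with both and 881 with neither (log2 ratio 1.70), so the C1q difference was as large. P2ry12 was at 56.4 CPM from 67 UMIs with both and at 229.9 with neither (-2.03, a call of lower), and Tmem119 at 60.6 and 170.3 (-1.49, also lower). The ratio of C4b was -0.39 and that of Cx3cr1 -0.25 in this pool, opposite in sign to the ratio over all outside barcodes, as was that of Fcrls, -0.39, and of Sall1, -1.69. On day 19 only 11 barcodes had both markers and no T receptor UMI. They held C1qa at 5779 CPM and 1 UMI of P2ry12. P2ry12 (-3.83), Tmem119 (-1.23) and Fcrls (-1.89) were called lower there than with neither marker. The share of all genes called in this pool is not given here on either day, so these calls have no background beside them. Where at least 80% of a barcode's multiplexing tag UMIs were on 1 tag, P2ry12 on day 13 was at 70.2 CPM with both markers and 165 with neither (-1.23).

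Co-detection was summarised by the number of P2ry12, Tmem119, Sall1 and Fcrls found in a barcode after thinning, from 0 to 4. On day 13, 3234 outside barcodes had none of these microglia genes, 458 had 1, 241 had 2, 252 had 3 and 61 had 4. On day 19 the numbers were 953, 298, 124, 62 and 15. At least 2 of the 4 were found in 20.0% of Gpnmb+ Ms4a7+ barcodes on day 13 (128 of 639, exact binomial interval 17.0% to 23.3%) and in 20.9% on day 19 (27 of 129, 14.3% to 29.0%). With neither marker the shares were 10.3% (286 of 2777) and 12.2% (108 of 884), and in barcodes inside the tables they were 6.56% and 8.37%. With Gpnmb only they were 16.7% and 24.6%, and with Ms4a7 only 16.9% and 13.4%. Without thinning, the Gpnmb+ Ms4a7+ shares were 44.1% and 71.3%. The order of the classes depended on the number of genes asked for. At least 3 of the 4 were found in 7.20% of Gpnmb+ Ms4a7+ barcodes (46 of 639) and 7.24% of those with neither marker (201 of 2777) on day 13, and in 8.53% (11 of 129) and 6.11% (54 of 884) on day 19, with overlapping intervals. All 4 were found in 1 of 639 (0.16%) and 51 of 2777 (1.84%) on day 13, and on day 19 in 0 of 129, which allows a share of up to 2.33% by the limit of 3 counts and has an exact interval up to 2.82%, and in 14 of 884 (1.58%). With a minimum of 1000 gene UMIs and thinning to 1000, the order turned round for at least 2 genes too, at 4.05% with both markers and 5.08% with neither on day 13 and at 2.21% and 6.46% on day 19.

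For at least 2 genes the order of the classes also depended on the T receptor UMI. Among outside barcodes with one, at least 2 microglia genes were found in 22.0% of Gpnmb+ Ms4a7+ barcodes on both days, against 8.76% and 11.4% with neither marker. Among those without one, they were found in 9.09% of Gpnmb+ Ms4a7+ barcodes on day 13 (9 of 99, 4.24% to 16.6%) and in 14.8% with neither (105 of 711, 12.2% to 17.6%). On day 19 the counts were 1 of 11 and 34 of 234 (14.5%). The higher share with at least 2 microglia genes was therefore seen in Gpnmb+ Ms4a7+ barcodes that also held a T receptor UMI, and in the others the intervals of the classes overlapped.

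**Figure D2:**
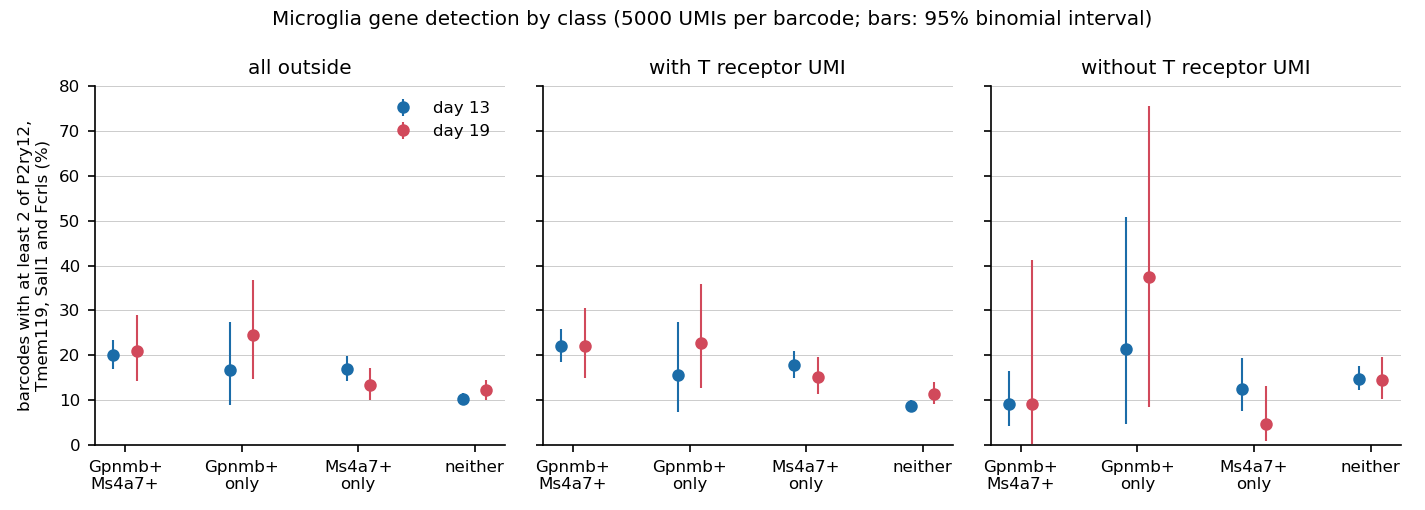
Share of outside barcodes with at least 2 of P2ry12, Tmem119, Sall1 and Fcrls after thinning to 5000 UMIs, by Gpnmb and Ms4a7 class, for all outside barcodes and for those with and without a T receptor UMI. Points are percentages, blue for day 13 and red for day 19, with exact 95% binomial intervals, and on day 13 the Gpnmb+ Ms4a7+ class lies above the class with neither marker at the left (20.0% against 10.3%) but not at the right (9.09% against 14.8%), an order that was not seen for at least 3 genes (7.20% against 7.24%).

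The microglia genes were found together. Of the 622 outside barcodes with P2ry12 on day 13, 63.8% also had Tmem119 and 59.6% Fcrls, against 7.1% and 5.4% of those without P2ry12, at median depths of 16911 and 11773 UMIs. C1qa was found in 89.1% of them and Cx3cr1 in 76.8%. Gpnmb was found in 14.6% of the barcodes with P2ry12 and 10.5% of those without, and Ms4a7 in 28.6% and 21.2%. Sall1, the microglial transcription factor, was found in 97 barcodes, of which 81.4% had P2ry12 and 82.5% Tmem119, against 13.1% and 13.8% of the others, at nearly the same median depth (12268 and 12262 UMIs). On day 19, 55.3% of the 246 barcodes with P2ry12 had Tmem119 and 32.5% Fcrls. C4b was found with the microglia genes too: of the 113 barcodes with C4b on day 13, 93.8% had C1qa, 71.7% Tmem119 and 53.1% P2ry12, and of the 127 on day 19, 97.6% had C1qa and 56.7% Tmem119.

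The complement genes were higher in the barcodes with at least 3 microglia genes than in those with none. On day 13 C1qa was at 4248 CPM in the 313 outside barcodes with at least 3 of the 4 and at 528 in the 3234 with none (log2 ratio 3.01). C1qb was at 4903 and 718 CPM (2.77) and C1qc at 3535 and 431 (3.03). C4b was at 31.2 and 2.71 CPM (3.52, 3.20 to 3.85) and Cx3cr1 at 988 and 62.8 (3.97). On day 19, with 77 and 953 barcodes, C1qa was at 5525 and 1061 CPM (2.38), C4b at 85.7 and 13.3 (2.69) and Cx3cr1 at 651 and 88.2 (2.88). All 5 members that did not define the groups were called higher on both days. Beside this, 7.94% of 11210 genes tested on day 13 and 5.26% of 9638 on day 19 were called higher, and 4.19% and 4.31% lower. The other 4 members defined the groups, so their higher level followed from that choice and is not a result. Gpnmb did not follow: it was at 141 and 159 CPM on day 13 (-0.17) and at 43.6 and 40.3 on day 19 (0.11). Ms4a7 gave 0.16 and -0.39. All 3 C1q genes were found in 99.4% of the barcodes with at least 3 microglia genes on day 13 and in 100% on day 19. A T receptor UMI was found in 64.9% of these barcodes on each day.

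Without a T receptor UMI, 110 barcodes on day 13 and 27 on day 19 had at least 3 microglia genes, and in them C1qa and the microglia genes were at higher levels than over all outside barcodes with at least 3. C1qa was at 7350.1 and 9466 CPM, P2ry12 at 1725 and 944, Tmem119 at 1294 and 1108 and Cx3cr1 at 1953 and 1437. Gpnmb was at 70.2 and 13.3 CPM and Ms4a7 at 51.9 and 4.43 CPM. After thinning, Gpnmb was found in 4 of the 110 barcodes on day 13 and in 0 of the 27 on day 19, and Ms4a7 in 11 and in 0. A count of 0 of 27 allows a share of up to 11.1% by the limit of 3 counts, which is a limit on barcodes with a UMI after thinning and not on barcodes that express the gene. On day 13, then, a UMI of either marker was seen in few of these barcodes. In the same pool the Gpnmb+ Ms4a7+ barcodes had P2ry12 at 56.4 CPM on day 13 beside C1qa at 2869 CPM, so high C1q was found in barcodes with little P2ry12 as well. Those with no microglia gene had C1qa at 453 and 658 CPM.

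**Figure D3:**
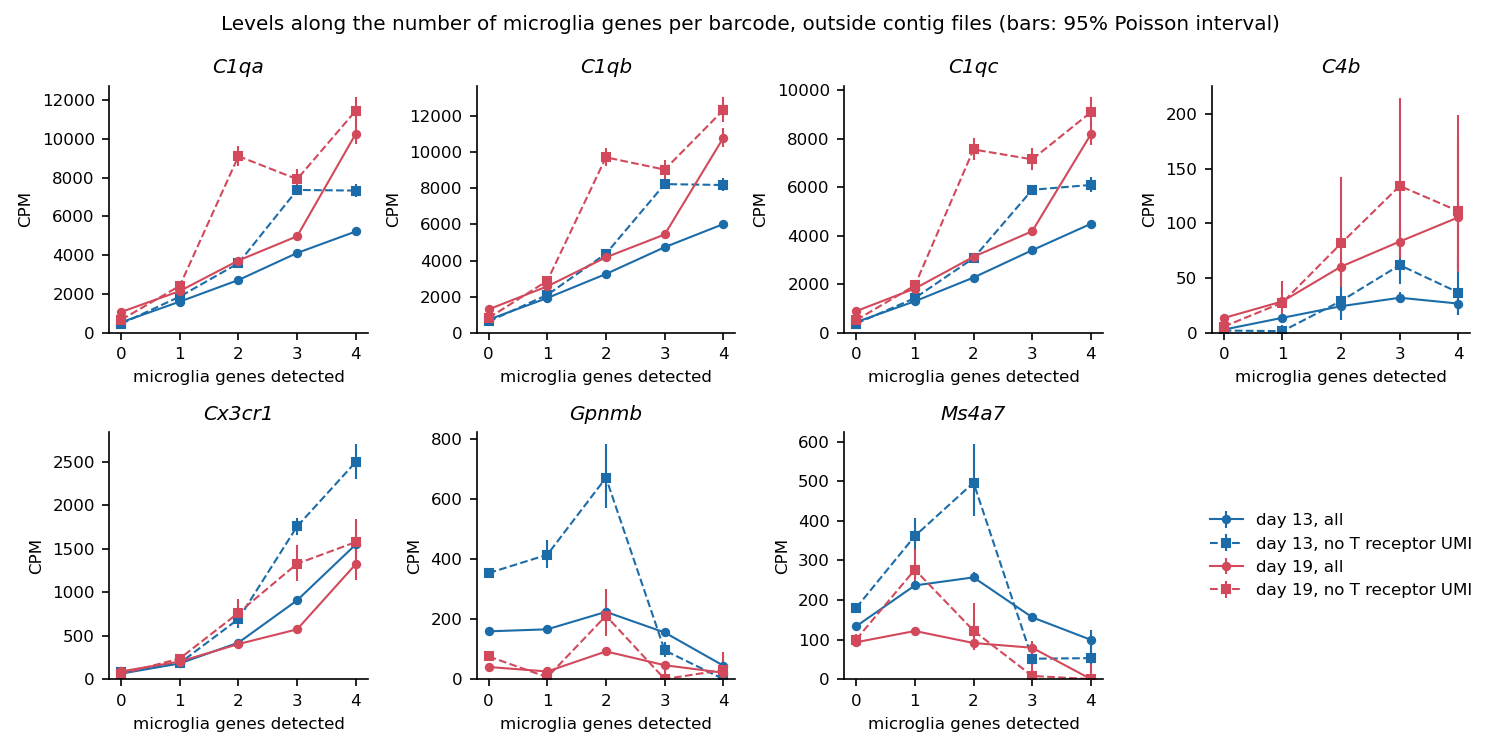
Levels of C1qa, C1qb, C1qc, C4b, Cx3cr1, Gpnmb and Ms4a7 by the number of P2ry12, Tmem119, Sall1 and Fcrls found in an outside barcode. Points are CPM of summed UMIs with exact 95% Poisson intervals, solid lines all outside barcodes and dashed lines those without a T receptor UMI. In all outside barcodes of day 13 C1qa climbs from 528 CPM at 0 to 5217 CPM at 4 microglia genes. Gpnmb has no steady course there, at 159, 166, 224, 155 and 44.7 CPM from 0 to 4 genes. The last value rests on 32 UMIs in 61 barcodes.

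From day 13 to day 19, C4b rose in the outside barcodes, from 8.33 to 25.1 CPM (log2 ratio 1.59, interval 1.44 to 1.75). It was the single member called higher and none was called lower, beside 2.53% of 12182 genes called higher and 1.94% called lower. C1qa went from 1156 to 1804 CPM (0.64, 0.63 to 0.66), C1qb had a ratio of 0.56 and C1qc of 0.67, all within 2-fold. P2ry12 went from 97.2 to 58.8 CPM (-0.72, -0.80 to -0.65) and Fcrls had a ratio of -0.74, also within 2-fold. Tmem119 (0.02) and Cx3cr1 (-0.06) were near 0, and Sall1 was at 0.58, or at -0.20 in barcodes without a T receptor UMI. Fcrls was past 2-fold in barcodes without a T receptor UMI (-1.29) and in those with at least 80% of their tag UMIs on 1 tag (-1.08), where P2ry12 was as well (-1.10). Inside the contig tables C4b rose as well (1.52), the single member called, beside 1.86% of 11606 genes called higher. C1qa had a ratio of 0.76 there and P2ry12 of -0.88. In near-empty barcodes the levels differed in the same direction, C4b from 5.29 to 12.2 CPM and P2ry12 from 107 to 58.1 CPM, and the part of free RNA in the day differences was not tested. Markers of other cells differed between the days as well. The monocyte markers summed to 4251 and 2192 CPM in all outside barcodes and to 3381 and 2096 CPM inside the contig tables. They summed to 4459 and 1814 CPM with both macrophage markers and to 3145 and 1261 CPM with at least 3 microglia genes. Those of plasmacytoid dendritic cells summed to 1218 and 666 CPM inside the contig tables and to 1701 and 951 CPM in all outside barcodes. Choroid plexus markers summed there to 65.2 and 7.41 CPM and those of natural killer cells to 12.5 and 31.2 CPM, and Gpnmb was at 164 and 41.7 CPM. Their part in the day results was not tested.

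Among Gpnmb+ Ms4a7+ barcodes C4b rose from 10.4 to 34.6 CPM (1.74), again the single member called higher with none lower, beside 1.99% and 2.48% of 9801 genes. This ratio ranged from 1.29 to 3.47 over 17 alternatives, and in 4 of them it rested on under 100 UMIs and was not called. In the barcodes without either marker C4b rose from 5.95 to 21.0 CPM (1.82), where 1.47% of 11032 genes were called higher. C1qa had a ratio of 0.60 with both markers and 0.93 with neither, and P2ry12 of -0.71 and -0.70. With both markers the ratio of P2ry12 ranged from -2.79 to 0.24 over the alternatives. It was called lower with classes made by at least 2 UMIs of each marker (-1.16) or by thinned UMIs (-1.33) and without tag 2 of day 19 (-1.18), and it turned positive with at least 80% of tag UMIs on 1 tag (0.24). The value of -2.79, without T receptor barcodes, rests on under 100 UMIs. Fcrls, at -0.65 with both markers, was called lower without T receptor barcodes (-2.57) and with classes from thinned UMIs (-1.31), and C1qa was called higher without T receptor barcodes (1.01). In the same comparison Gpnmb itself fell from 621 to 228 CPM in the Gpnmb+ Ms4a7+ barcodes (-1.45). Among outside barcodes with Gpnmb only, of which there were 72 and 65, C1qa rose from 903 to 2427 CPM (1.43) and Tmem119 from 71.7 to 152 CPM (1.08). With C1qb and C1qc these made 4 of the 7 members with enough UMIs, beside 2.27% of 4145 genes called higher, and P2ry12 went from 63.0 to 87.7 CPM (0.48).

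Members were called lower on day 19 in the barcodes with at least 3 microglia genes. There P2ry12 fell from 805 to 383 CPM (-1.07, -1.20 to -0.94) and Fcrls from 523 to 259 CPM (-1.02, -1.18 to -0.86), while C4b rose from 31.2 to 85.7 CPM (1.46). This made 1 member higher and 2 lower, beside 0.648% and 2.1% of 7098 genes. Of 16 alternatives, 13 kept the call of C4b, 13 that of P2ry12 and 10 that of Fcrls. The ratio of C4b stayed past 2-fold, from 1.03 to 1.99, and its call was lost where the sums held under 100 UMIs. Tmem119 had a ratio of -0.49, Cx3cr1 of -0.60, C1qa of 0.38 and Sall1 of 0.44. P2ry12 and Fcrls helped to choose these barcodes, so each was also read in the barcodes chosen by at least 2 of the other 3 microglia genes. P2ry12 then fell from 631 CPM in 386 barcodes to 242 in 115 (-1.38, -1.50 to -1.26) and Fcrls from 399 to 148 CPM (-1.43), while Tmem119 went from 476 to 360.4 CPM (-0.40) and Sall1 from 27.3 to 30.9 CPM (0.18). This ratio of P2ry12 ranged from -2.06 to -0.49 over the alternatives and was within 2-fold with a minimum of 1000 gene UMIs (-0.49) and without T receptor barcodes (-0.76). Without T receptor barcodes the falls within the group of at least 3 genes were smaller, at -0.87 for P2ry12 and -0.73 for Fcrls, under 2-fold.

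Each capture carried 4 multiplexing tags, and barcodes were split by the tag with the most UMIs. The labels do not tie these tags to mice, and the median barcode had only 15 tag UMIs on day 13 and 11 on day 19, so the ranges describe the captures and are not replicate error. The share of all genes whose ranges lie apart is not given here, so a lack of overlap has no background beside it. C4b in outside barcodes ranged from 6.93 to 9.33 CPM over the tags of day 13. Over those of day 19 it ranged from 18.4 to 28.8, with no overlap. P2ry12 ranged from 78.2 to 102 CPM and from 45.7 to 72.1, all tags of day 19 being lower. C1qa ranged from 977 to 1231 and from 1429 to 2182 CPM, all tags of day 19 being higher. The ranges of Tmem119 and Cx3cr1 in all outside barcodes overlapped. In the Gpnmb+ Ms4a7+ barcodes those of C4b did as well, from 5.02 to 13.4 CPM on day 13 and from 7.78 to 39.7 on day 19. In the barcodes with at least 3 microglia genes P2ry12 ranged from 759.9 to 814 CPM on day 13 and from 358 to 394 on day 19, Fcrls from 473 to 667 and from 210.3 to 271, and C4b from 18.7 to 52.0 and from 71.4 to 90.5, with no overlap, while the C1qa ranges overlapped. Tmem119, from 565 to 653 CPM and from 375 to 505, and Cx3cr1, from 926 to 1005 and from 536 to 795, were also lower in all tags of day 19 there.

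**Figure D4:**
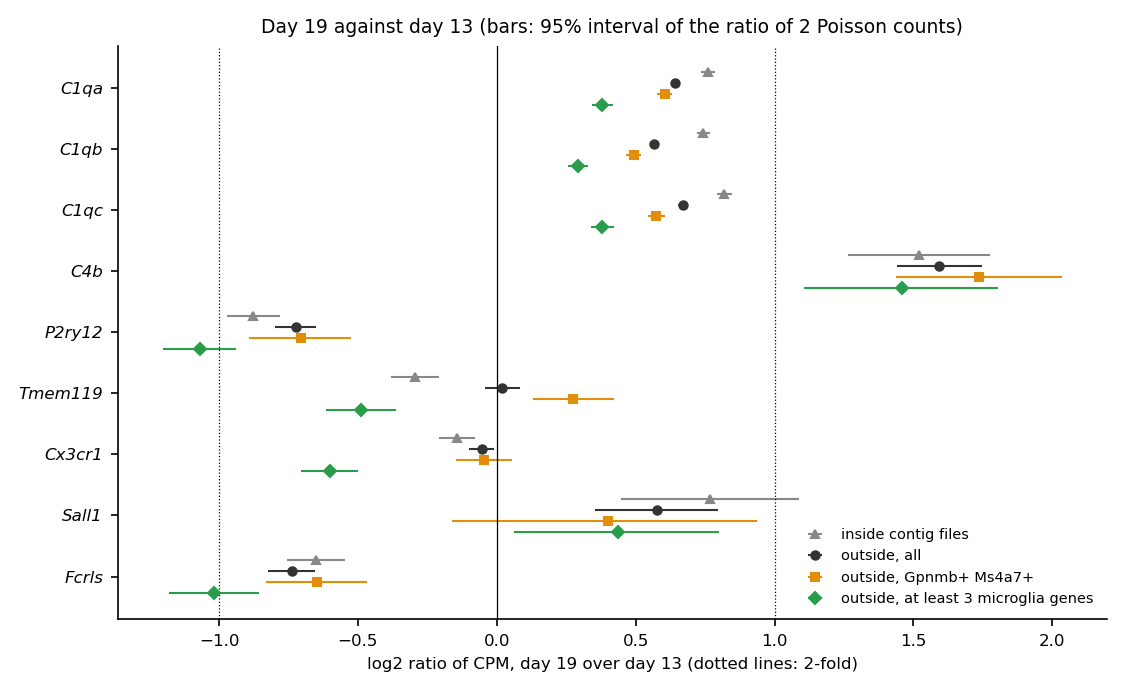
Ratio of day 19 to day 13 for each of the 9 genes inside the contig tables, in all outside barcodes, in Gpnmb+ Ms4a7+ barcodes and in outside barcodes with at least 3 microglia genes. The x axis is the log2 ratio of CPM with the exact 95% interval of a ratio of 2 Poisson counts, dotted lines mark 2-fold, and C4b lies beyond the upper line in all 4 groups (1.46 to 1.74) while P2ry12 lies beyond the lower line only with at least 3 microglia genes (-1.07).

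Other genes of complement and of microglia were read from lists of 28 and 18 genes. Of the complement list, 14 genes could be tested between Gpnmb+ Ms4a7+ barcodes and those with neither on day 13, and 6 were higher and 1 lower, with a median log2 ratio of 0.58 against -0.10 over all genes tested. C3ar1, the receptor of the C3a fragment, was at 170.2 and 25.9 CPM (2.72), Cfb, factor B of the alternative pathway, at 437 and 109 (2.01), C3, the central component, at 123 and 33.3 (1.89) and C2, the partner of C4 in the classical convertase, at 5.17 and 1.89 (1.46). Cfp, properdin, was lower, at 39.7 and 85.5 CPM (-1.11). On day 19, 5 of 12 were higher, among them C3ar1 (2.18) and C3 (1.58), and none was lower. The microglia list gave 2 higher and 0 lower of 18 on each day, Trem2 (1.34 and 1.03) and Mertk, a phagocytic receptor kinase (1.27 and 1.11). Over all genes in this comparison, 2.89% were called higher and 1.69% lower on day 13, and 1.52% and 1.26% on day 19.

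Along the number of microglia genes, most of the microglia list was higher and the complement list was mixed. Between at least 3 and 0 microglia genes on day 13, 17 of 18 genes of the microglia list were higher, the exception being Selplg (1.00), and the median was 3.90 against 0.01 over all genes, of which 7.94% were called higher and 4.19% lower. Sparc was at 1113 and 32.9 CPM (5.08), Crybb1 at 219 and 6.12 (5.16) and Gpr34, a lysophospholipid receptor, at 267 and 6.31 (5.40). Of 15 complement genes 7 were higher and 2 lower. Itgam, a chain of complement receptor 3, was at 237 and 49.2 CPM (2.27) and C5ar1, the C5a receptor, at 105 and 26.2 (2.01). Cfb was at 234 and 258 CPM (-0.14), and Cfp was lower, at 27.8 and 76.3 (-1.46). On day 19 the counts were 16 of 17 higher in the microglia list, and 4 of 11 higher with 2 lower in the complement list, beside 5.26% of all genes higher and 4.31% lower.

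By day, few genes of the lists were called. In outside barcodes 1 of 16 complement genes was higher on day 19 and 1 lower, and 1 of 18 microglia genes was higher, Crybb1, which rose from 33.5 to 95.5 CPM (1.51), beside 2.53% of all genes called higher and 1.94% lower. In the barcodes with at least 3 microglia genes, none of the 18 microglia genes was called in either direction, with Crybb1 at 0.57 and P2ry13, a purinergic receptor related to P2ry12, at -0.70. C3 fell there from 68.5 to 34.0 CPM (-1.01), the single complement gene called of 10, beside 0.648% of all genes called higher and 2.1% lower. Of the 18 microglia genes, 5 had a ratio above 0 in these barcodes, and their median was -0.15 against -0.04 over all genes tested.

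An antibody to CX3CR1 was part of the tag panel, and its counts did not follow the gene. On day 13 its median was 61 UMIs in outside barcodes, 60 inside and 61 in the barcodes with at least 3 microglia genes, where Cx3cr1 RNA was at 988 CPM. Barcodes with a Cx3cr1 UMI had a median of 60 and those without 61. On day 19 these medians lay between 32 and 34. The antibody to CD11b, the product of Itgam, did differ: on day 13 its median was 60 UMIs in Gpnmb+ Ms4a7+ barcodes, 11 in those with neither marker, 30 in those with at least 3 microglia genes and 6 inside the contig tables.

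Marker lists of other cells were summed in the same groups. All 8 T cell markers were present in the outside barcodes, at 2401 and 2705 CPM in sum, with 4047 and 3906 inside and 2621 and 2726 in near-empty barcodes. In the barcodes with at least 3 microglia genes they summed to 1658 and 1749 CPM. The 12 markers of monocyte-derived macrophages, which include Gpnmb and Ms4a7, summed to 8719 CPM in Gpnmb+ Ms4a7+ barcodes, 3979 with neither and 4230.4 with at least 3 microglia genes on day 13. The 8 microglia markers, 4 of which are members, summed to 1273, 1077 and 7165 CPM in these groups. Neuron markers were at 0 with at least 3 microglia genes on both days, and the 8 markers of border macrophages summed to 72.8 and 81.3 CPM, with Lyve1 at 0. Siglech, in the microglia list, is also a marker of plasmacytoid dendritic cells, whose 5 markers summed to 1799.9 and 1124 CPM there. Astrocyte markers summed to 47.4 CPM with at least 3 microglia genes and 8.51 with none on day 13 and to 39.2 and 15.6 on day 19, with Aqp4 and Gja1 at 0 in the barcodes with at least 3. Neutrophil markers summed to 75.3 and 18.8 CPM on day 13 and to 65.0 and 16.3 on day 19, with S100a9 and Retnlg at 0 with at least 3 microglia genes on both days and S100a8 at 0 on day 19. With at least 3 microglia genes and with none, dendritic cell markers summed to 451 and 1045 CPM on day 13. On day 19 they summed to 473 and 637 CPM. Choroid plexus markers summed to 0.89 and 93.3 CPM and to 13.3 and 11.0 in these groups. Monocyte markers summed to 3145 and 4449 CPM and to 1261 and 2482. The part of these other cells in the results was not tested.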

How the data were processed

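Gene expression, antibody tag and T cell receptor libraries of 1 capture per day were read. The authors deposited unfiltered matrices of raw UMI counts (32285 genes) and tables of receptor contigs. The submitters' processing notes name mm10, bcl2fastq 2.20, Cell Ranger 4.0.0, STAR 2.7.5c, Seurat and R 4.1.2. Barcodes needed at least 5000 gene UMIs and at most 10% mitochondrial UMIs. Of 8879 on day 13, 1 was left out by the second filter, and of 4667 on day 19 none. No doublet caller was run.

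UMIs were summed per group and divided by all gene UMIs of the group (CPM). Ratios have exact 95% intervals for 2 Poisson counts, and shares exact Clopper-Pearson intervals. Both cover counting error only. Shares were taken after thinning each barcode to 5000 UMIs, which leaves out no kept barcode. A gene was called at 2-fold or more where the compared sums held 100 UMIs or more between them. Likeness is Pearson's r of log counts per 10000 among genes with at least 200 UMIs in each day. The ratio and interval were tested on simulated data. The genes named are the 9 members, Gpnmb and Ms4a7, and, of 2 lists, up to 4 genes with the highest and 4 with the lowest ratios among those with at least 100 UMIs on both days. Genes named by this rule but not reported here remain in the counts and medians of the lists. Members and lists were chosen with earlier results of these data known. Alternatives changed the UMI minimum, mitochondrial limit, class rule, thinning, barcodes used and total. Calls under an alternative have no share of all genes beside them. Python 3.11.15, numpy 2.4.6, scipy 1.17.1, pandas 2.3.3 and matplotlib 3.10.9 were used.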

Additional observations from a re-analysis of the deposited data

How the results depend on the processing

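The share of Gpnmb+ Ms4a7+ barcodes with at least 2 microglia genes, 20.0% on day 13 and 20.9% on day 19, was 4.05% and 2.21% with a minimum of 1000 UMIs and thinning to 1000, 44.1% and 71.3% without thinning, and 9.09% on both days without T receptor barcodes. On day 13 it was 13.6% without the 8% deepest barcodes and 14.6% where at least 80% of tag UMIs were on 1 tag. Leaving out each tag in turn gave 18.1% to 21.0% on day 13 and 17.5% to 23.2% on day 19. The log2 ratio of C1qa between days, 0.64, was 0.72 with the minimum of 1000 UMIs, 0.59 with 10000, 0.52 without T receptor barcodes, 0.77 without the deepest, 0.84 with the tag rule and 0.71 with mitochondrial and ribosomal genes left out of the total; leaving out tags gave 0.53 to 0.71. That of P2ry12, -0.72, was -0.63 with the minimum of 1000 UMIs, -0.996 without T receptor barcodes and -1.10, past 2-fold, with the tag rule; leaving out tags gave -0.80 to -0.66.

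Over 58 results and 18 alternatives, the 14 ratios that were called kept their sign in every alternative that gave them a value, and 5 kept the call. These 5 were C1qa, C1qb and C1qc by class on day 13, C4b by day in all outside barcodes, and Fcrls by day in barcodes chosen by the other microglia genes. The fall of P2ry12 with at least 3 microglia genes lost its call with the minimum of 1000 UMIs (-0.59), without T receptor barcodes (-0.87) and without tag 2 of day 19 (-0.97). That of Fcrls lost it under 6 alternatives and ranged from -1.50 to -0.48. Classes from thinned UMIs were an alternative chosen after seeing the data. Shares have no value for the changed total, and ratios over all outside barcodes none for the class and thinning rules. No paired analysis was possible because each day is 1 capture and no test was made. The depth limits Sall1 and C4b most, with 276 UMIs of Sall1 and 629 of C4b in the smaller of the days' outside sums.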
